A study of Mus musculus with 7 samples.

Results

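Cholesterol synthesis and transport genes were compared between germinal centre B cells of RRas2-deficient and wild-type (WT) mice. A list of 30 sterol genes was matched to the platform annotation of the array by gene symbol, and a gene counted where a probe carried that symbol alone. This gave 27 sterol genes of 21515 genes on the array, and all 27 were bright enough to be among the 16136 genes tested. Acat2, Idi1 and Soat1 were not analysed here. Only Scap had more than 1 such probe, of which the brighter was used. The list held 6 genes of the isoprenoid arm of synthesis, 12 of the sterol arm, 4 of sterol sensing and 5 of transport and export.

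The series asked how messenger RNA of these cells differs when R-Ras2, a small GTPase encoded by Rras2, is missing. It held 3 arrays of RRas2-deficient mice and 4 of WT mice. The mice of both genotypes had received sheep red blood cells into the peritoneum 7 days before the spleen was taken, and B220+CD95+GL7+ B cells were sorted by flow cytometry. The labels call the samples biological replicates. They do not give the allele, the strain, the age or whether animals were pooled, and 1 field of the deficient samples names Rras in place of RRas2. Each array gave 1 log2 intensity per probe, so a difference of 1 is a 2-fold change. Intensities of different genes cannot be set against each other. Precision is limited by having 7 arrays. In sorted bulk samples, fewer cells of a type and less RNA per cell cannot be told apart.

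Cholesterol is built from acetyl units through mevalonate, which is turned into short isoprenoids. The isoprenoids are joined to squalene and closed to lanosterol, which is trimmed to cholesterol. The same isoprenoids are attached to many small GTPases and anchor them in membranes. The transcription factor SREBP2, encoded by Srebf2, switches on most of these enzyme genes. SCAP carries it out of the endoplasmic reticulum when sterols are scarce, and the INSIG proteins hold it back when they are plentiful. Dividing lymphocytes need sterols for new membrane, whereas the transporters ABCA1 and ABCG1 remove cholesterol from cells.

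The arrays differed in the spread of their values and were divided into 2 sets at the widest gap in it. The interquartile range of log2 intensity was 2.37 to 2.49 on 3 narrower arrays, namely RRas2-deficient replicate 2 and WT replicates 1 and 2. It was 2.69 to 2.91 on 4 wider arrays, namely RRas2-deficient replicates 1 and 3 and WT replicates 3 and 4. On the 7 arrays 5 B cell markers averaged 10.58 to 11.15 and 6 T cell markers 3.78 to 4.55, beside a limit for dim genes of 3.48. The 6 germinal centre markers tested, such as Bcl6, averaged 9.44 to 9.96 on the wider arrays and 8.29 to 8.40 on the narrower ones. Immediate early genes such as Fos showed the reverse, averaging 6.19 to 7.31 on the wider arrays and 7.73 to 8.16 on the narrower ones. Rras2 read 6.93, 6.68 and 7.12 on deficient arrays against 7.13, 7.41, 8.66 and 8.39 on WT arrays. All deficient arrays thus lay below all WT arrays, as in 0.366% of all genes tested. The log2 difference was -0.99 ± 0.39 (SE, limma unadjusted p = 0.0415), and it did not pass the test after adjustment (adjusted p = 1.00). With the 2 sets of arrays held as a block the difference was -1.13 ± 0.20 (SE, limma adjusted p = 0.296). What the mutant allele lacks is not given in the labels, so a probe outside the missing stretch would check nothing. WT replicate 3 stood apart in sex-linked genes. Its Xist value was 6.61, against 10.04 to 10.28 on deficient arrays and 9.43 to 10.29 on the other WT arrays. The Y-linked genes Kdm5d, Eif2s3y and Uty read 6.48, 6.75 and 5.93 on it. On any other array of either genotype they read at most 4.97, 4.40 and 4.31.

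No sterol gene passed the test for a genotype difference in a model of genotype alone. Of the 27 genes, 0 passed an adjusted p of 0.05 (limma with Benjamini-Hochberg adjustment over all genes tested), against 0.0124% of all genes tested. At an unadjusted p under 0.05 there were 0 of the 27, against 0.818%. The genotypes overlapped in each of the 27, so 0 had deficient arrays all on 1 side of the WT arrays, against 1.08% of all genes (0.366% all below and 0.719% all above). The difference was negative, meaning a lower mean in deficient cells, in 18 genes and positive in 9. The median log2 difference was -0.05, beside 0.0049 over all genes tested. The most negative difference was that of Lss (-0.37 ± 0.30, log2 difference ± SE) and the most positive that of Fdps (0.25 ± 0.49). The sign of the median rested on single arrays. It was 0.10 when RRas2-deficient replicate 2 was left out, 0.07 when WT replicate 3 was, and 0.02 when WT replicate 4 was.

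The spread behind this was large. For Cyp51, which removes a methyl group from lanosterol, the 95% confidence interval of the log2 difference was -1.93 to 2.10. For Hmgcs1, the synthase before mevalonate, it was -1.88 to 1.53. These intervals leave room for a change of 2-fold or more in either direction. For Mvk, Tm7sf2, Insig2 and Npc2, whose arrays lay close together, they were -0.25 to 0.33, -0.12 to 0.33, -0.16 to 0.30 and -0.12 to 0.30.

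**Figure D1:**
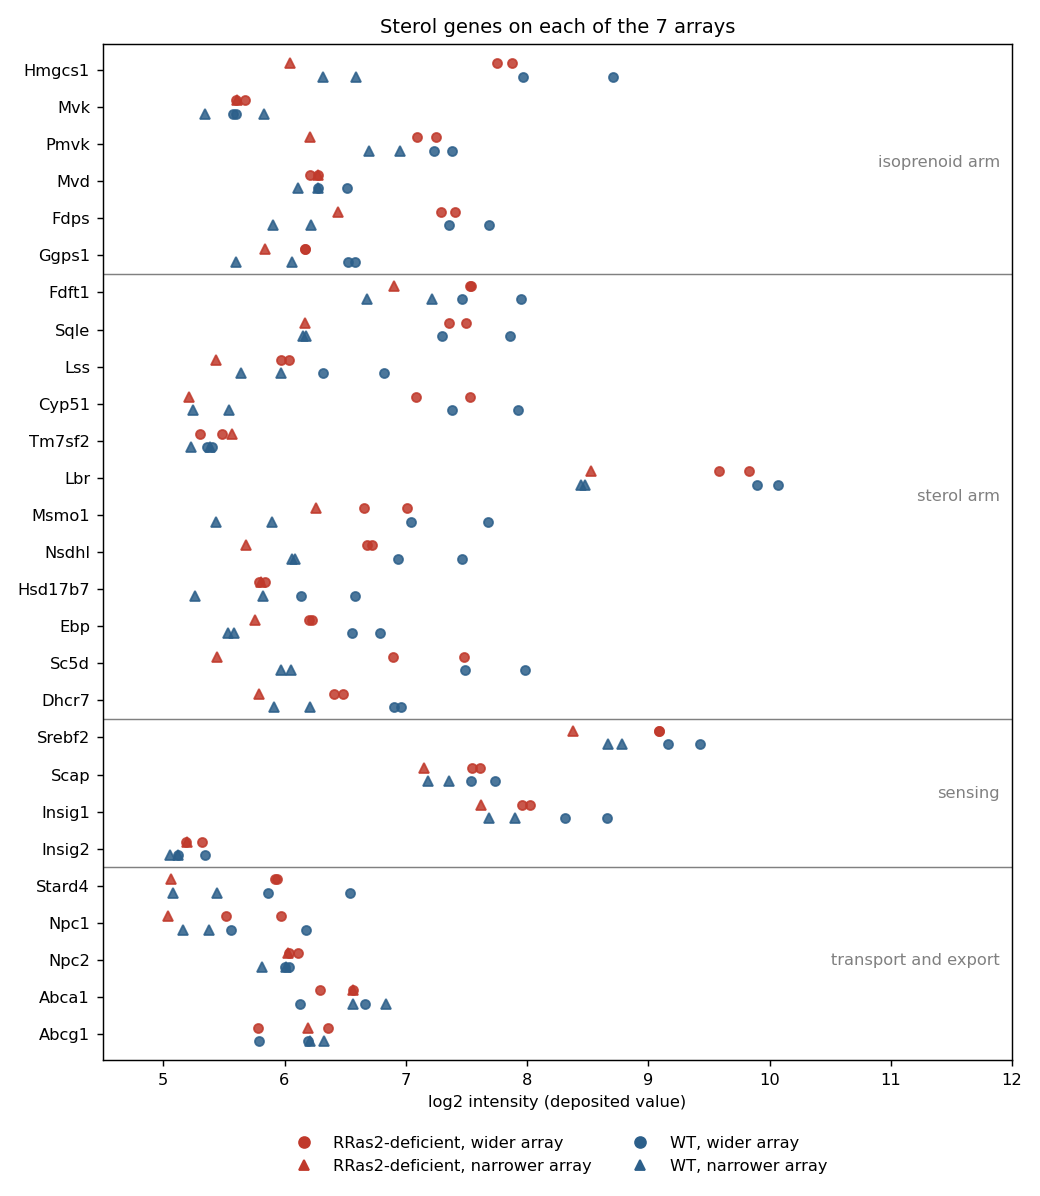
Log2 intensity (x axis) of each of the 27 sterol genes (y axis, grouped by role) on each array. Red points are the 3 RRas2-deficient arrays and blue points the 4 WT arrays; circles are wider and triangles narrower arrays. In 18 genes all circles lie above all triangles, whatever the genotype.

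The sterol genes followed the 2 sets of arrays, which cut across genotype. In 18 of 27 genes all 4 wider arrays were above all 3 narrower arrays, against 26.9% of all genes tested, and in 0 they were all below, against 13.6%. The mean was higher on the wider arrays in 24 of 27 genes, with a median log2 difference of 0.62 between sets, beside -0.02 over all genes. Other genes of like intensity also read higher on the wider arrays. Among the 8037 tested genes whose mean intensity lay within that of the sterol genes (5.19 to 9.26), 73.4% were higher on the wider arrays, with a median of 0.30, and 47.4% had all wider arrays above all narrower ones. The sets were defined from the arrays' own spread, so these are descriptions of 7 samples and no test was made. The part of RNA quality, sorting or array handling was not tested.

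Cyp51 moved furthest between the sets. It read 7.53, 5.21 and 7.08 on RRas2-deficient replicates 1 to 3, against 5.24, 5.54, 7.92 and 7.38 on WT replicates 1 to 4. The wider arrays were 4.43-fold brighter in the mean, by 2.10 on the log2 scale within deficient cells and 2.26 within WT cells. This was the 17th largest such difference of the 16136 genes. Hmgcs1 differed by 1.76 between sets and Sc5d, a sterol desaturase, by 1.64. Lbr, Sqle, Fdps, Msmo1 and Nsdhl followed at 1.36, 1.34, 1.24, 1.23 and 1.01. Mvk (0.02), Tm7sf2 (-0.01) and Mvd (0.10) lay near 0, although they code for enzymes of the same route. The exporters had lower means on the wider arrays, at -0.24 for Abca1 and -0.21 for Abcg1.

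**Figure D2:**
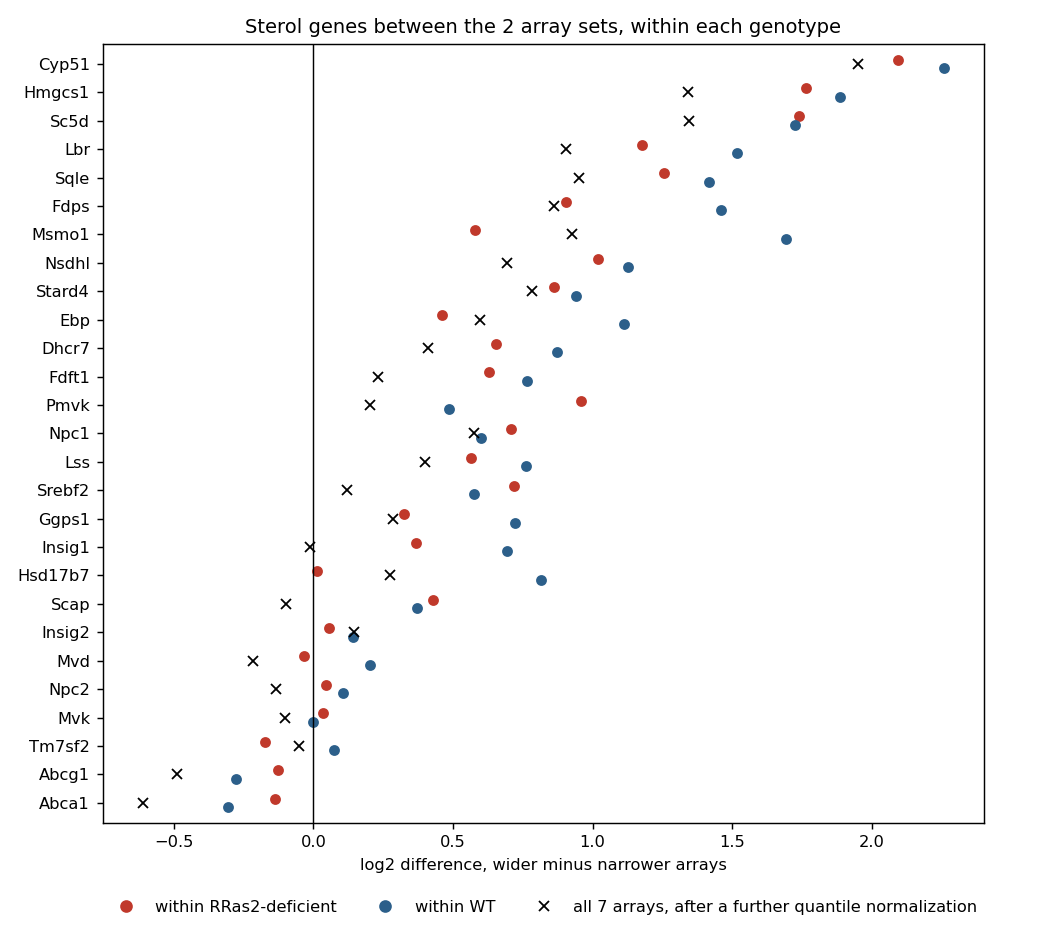
Log2 difference between the wider and the narrower arrays (x axis) for each sterol gene (y axis), in order of size. Red points are differences within RRas2-deficient cells (2 wider arrays, 1 narrower), blue points those within WT cells (2 and 2), and crosses those over all 7 arrays after a further quantile normalization. Cyp51, Hmgcs1 and Sc5d lie furthest to the right in both genotypes.

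Promoters of 4 genes are shown because their values move most (Cyp51, Hmgcs1 and Sc5d) or hardly at all (Mvk) between the array sets. Each window runs from 250 bases before to 50 bases after the RefSeq start of the gene in GRCm38.p6, so it holds upstream sequence and the start of the transcript. Capitals mark a sterol regulatory element, TCACNCCAC, or a CCAAT box, the letters bound by NF-Y, on either strand, and no 2 such elements overlap in these windows. The Cyp51 window is chr5:4104648-4104947 on the minus strand, Hmgcs1 chr13:119690101-119690400 on the plus strand, Sc5d chr9:42264251-42264550 on the minus strand and Mvk chr5:114444019-114444318 on the plus strand.
Cyp51: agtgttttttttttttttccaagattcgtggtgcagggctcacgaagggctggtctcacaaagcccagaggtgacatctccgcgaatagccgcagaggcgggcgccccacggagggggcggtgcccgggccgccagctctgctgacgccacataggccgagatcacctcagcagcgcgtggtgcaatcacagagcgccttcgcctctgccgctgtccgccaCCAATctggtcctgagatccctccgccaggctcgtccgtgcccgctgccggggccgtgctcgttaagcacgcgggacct
Hmgcs1: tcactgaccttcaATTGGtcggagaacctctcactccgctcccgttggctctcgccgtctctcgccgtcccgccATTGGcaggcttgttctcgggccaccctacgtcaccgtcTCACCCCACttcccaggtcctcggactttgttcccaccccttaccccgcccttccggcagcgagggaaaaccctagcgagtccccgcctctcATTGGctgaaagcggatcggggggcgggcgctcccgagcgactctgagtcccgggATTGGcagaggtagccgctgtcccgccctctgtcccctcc
Sc5d: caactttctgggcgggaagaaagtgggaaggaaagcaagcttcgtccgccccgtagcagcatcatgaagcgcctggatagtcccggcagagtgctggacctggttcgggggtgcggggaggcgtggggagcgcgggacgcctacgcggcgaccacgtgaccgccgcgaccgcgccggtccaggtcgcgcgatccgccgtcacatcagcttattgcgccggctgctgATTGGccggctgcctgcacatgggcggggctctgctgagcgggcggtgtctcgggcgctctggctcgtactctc
Mvk: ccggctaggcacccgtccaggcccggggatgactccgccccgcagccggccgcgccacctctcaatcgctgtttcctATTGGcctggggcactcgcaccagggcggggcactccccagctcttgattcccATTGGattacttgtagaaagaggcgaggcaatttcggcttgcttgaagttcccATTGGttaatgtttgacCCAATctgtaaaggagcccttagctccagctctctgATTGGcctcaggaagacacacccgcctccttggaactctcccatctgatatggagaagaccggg

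The Hmgcs1 window holds the element TCACNCCAC on its plus strand, beginning 137 bases before the start, and 4 CCAAT boxes. The Cyp51 and Sc5d windows hold 1 CCAAT box each and the Mvk window 5. Windows were at hand for 21 of the 27 sterol genes. Of these, 1 held TCACNCCAC on either strand, against 1.24% of all 32851 windows and 1.51% of the 12612 tested genes with a window. CCAAT was found in 19 of the 21 genes, against 37.4% of windows and 41.3% of tested genes. GGGCGG, the letters bound by SP1, was also found in 19, against 35.7% of windows and 59.7% of tested genes. CACGTG, an E box, was found in 6, against 7.15% of windows and 10.5% of tested genes. CCAAT was in 12 of 13 genes with a window whose wider arrays were all above the narrower ones and in 7 of the other 8, and no test was made of that split. A match to letters is a description and not a bound site, and a window without TCACNCCAC may hold another form of the element.

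The isoprenoid arm begins with Hmgcs1, which joins acetyl units on the way to mevalonate. It read 7.75, 6.05 and 7.87 on deficient arrays against 6.31, 6.59, 8.71 and 7.97 on WT arrays, and the genotypes overlapped widely. The means were 7.22 ± 1.02 in deficient cells and 7.40 ± 1.13 in WT cells (SD, n = 3 and 4), a log2 difference of -0.17 ± 0.72 (SE). Mvk and Pmvk, which phosphorylate mevalonate in turn, differed by 0.04 ± 0.12 and -0.22 ± 0.29. Pmvk read 7.25, 6.21 and 7.09 on deficient arrays against 6.69, 6.96, 7.23 and 7.38 on WT arrays, and its lowest array was RRas2-deficient replicate 2. Mvk lay at 5.60 to 5.68 on deficient arrays, inside the WT range of 5.34 to 5.83.

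Mvd, the decarboxylase that makes the isoprenoid unit, gave 6.21 to 6.28 on deficient arrays and 6.11 to 6.52 on WT arrays. Fdps, which makes farnesyl diphosphate, read 7.29, 6.44 and 7.41 on deficient arrays against 5.91, 6.22, 7.68 and 7.36 on WT arrays. Its difference of 0.25 ± 0.49 had the highest value of the list, with an unadjusted p of 0.622. Within the narrower arrays the deficient one was 0.38 above the WT mean, whereas on the wider arrays the difference was -0.17. Ggps1, which makes the geranylgeranyl group attached to many small GTPases, differed by -0.13 ± 0.25, with 5.84 to 6.17 on deficient arrays and 5.60 to 6.58 on WT arrays.

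The sterol arm starts with Fdft1, which joins 2 farnesyl groups to squalene, and Sqle, which oxidises squalene and limits the rate of this arm. Fdft1 differed by -0.0026 ± 0.32. Sqle read 7.36, 6.17 and 7.49 on deficient arrays against 6.16, 6.17, 7.86 and 7.30 on WT arrays. Its 3 narrower arrays lay at 6.16 to 6.17 across genotype, and the 4 wider arrays were all more than 1 higher. The Sqle means were 7.01 ± 0.73 in deficient cells and 6.87 ± 0.85 in WT cells (SD, n = 3 and 4), a log2 difference of 0.13 ± 0.53 (SE) with an unadjusted p of 0.808.

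Lss, which closes squalene epoxide to lanosterol, had the lowest unadjusted p of the 27 genes. It read 6.04, 5.44 and 5.97 on deficient arrays against 5.64, 5.97, 6.82 and 6.32 on WT arrays. The log2 difference was -0.37 ± 0.30 (SE, limma unadjusted p = 0.249), and after adjustment p was 1.00. WT replicate 3 stood highest, and without that array the difference was -0.16. Cyp51 differed by 0.09 ± 0.85, with a standard error far larger than the difference. Tm7sf2 and Lbr both code for sterol reductases of the next step, and Lbr is also a receptor for lamin at the nuclear envelope. Tm7sf2 read 5.48, 5.57 and 5.31 on deficient arrays against 5.23, 5.39, 5.36 and 5.40 on WT arrays, a difference of 0.11 ± 0.10 with an unadjusted p of 0.308. Lbr differed by 0.09 ± 0.53, and its 4 wider arrays lay at 9.58 to 10.07 and its 3 narrower ones at 8.45 to 8.53.

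Msmo1, Nsdhl and Hsd17b7 act together to remove methyl groups of the sterol ring. Msmo1 read 6.66, 6.26 and 7.01 on deficient arrays against 5.44, 5.89, 7.68 and 7.04 on WT arrays, and on the narrower arrays the deficient one was above both WT arrays. Nsdhl read 6.72, 5.68 and 6.68 on deficient arrays against 6.08, 6.07, 7.46 and 6.94 on WT arrays. The 3 deficient values of Hsd17b7 were nearly equal (5.79 to 5.84), inside the WT range of 5.26 to 6.58. Their differences were 0.13 ± 0.55, -0.28 ± 0.43 and -0.14 ± 0.29.

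The last steps are carried out by Ebp, an isomerase, Sc5d, a desaturase, and Dhcr7, the final reductase. Ebp differed by -0.05 ± 0.35, with 5.75 to 6.23 on deficient arrays and 5.54 to 6.79 on WT arrays. Sc5d read 7.48, 5.45 and 6.89 on deficient arrays against 5.97, 6.05, 7.98 and 7.49 on WT arrays, a difference of -0.27 ± 0.68. Dhcr7 read 6.48, 5.79 and 6.41 on deficient arrays against 6.21, 5.91, 6.90 and 6.96 on WT arrays, a difference of -0.27 ± 0.31. Dhcr7 is the only sterol gene on the chromosome of Rras2, chromosome 7, and 339 tested genes lie between them. Nsdhl and Ebp are on the X chromosome. WT replicate 3, the array that stood apart in sex-linked genes, was the highest of all 7 arrays in 18 of the 27 sterol genes and in 14 of the 18 enzyme genes. The share of all genes tested that were highest on it was not counted. Its mean over all genes tested was also the highest, at 5.67 against 5.47 to 5.62 on the others, and its interquartile range the widest, at 2.91. The part of sex or of array spread was not tested.

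Of the sensors, Srebf2 read 9.09, 8.38 and 9.09 on deficient arrays against 8.78, 8.66, 9.43 and 9.17 on WT arrays. Its means were 8.85 ± 0.41 in deficient cells and 9.01 ± 0.35 in WT cells (SD, n = 3 and 4), a log2 difference of -0.16 ± 0.26 (SE). Scap differed by -0.02 ± 0.17. Insig1, itself a target of SREBP2, read 8.02, 7.62 and 7.96 on deficient arrays against 7.69, 7.90, 8.66 and 8.31 on WT arrays. The difference of -0.27 ± 0.25 had an unadjusted p of 0.307, and it was -0.10 without WT replicate 3. Insig2, its relative, differed by 0.07 ± 0.10, with 5.19 to 5.32 on deficient arrays and 5.06 to 5.34 on WT arrays.

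Among transport genes, Stard4, which carries sterol between membranes, differed by -0.09 ± 0.38. Npc1 and Npc2, which pass cholesterol out of the lysosome, differed by -0.06 ± 0.30 and 0.09 ± 0.09. Npc2 read 6.04, 6.03 and 6.11 on deficient arrays against 5.81, 6.01, 6.04 and 6.00 on WT arrays, and the unadjusted p was 0.325. Abca1 read 6.57, 6.57 and 6.29 on deficient arrays against 6.57, 6.84, 6.13 and 6.66 on WT arrays, a difference of -0.07 ± 0.18. Abcg1 read 5.78, 6.20 and 6.36 on deficient arrays against 6.21, 6.32, 5.79 and 6.20 on WT arrays, a difference of -0.02 ± 0.18. Neither exporter showed a genotype difference beyond the spread between arrays.

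Macrophages also express both exporters, and the tested myeloid markers (11 of 12 listed) averaged 4.51, 4.94 and 5.06 on deficient arrays against 4.87, 4.83, 4.45 and 4.74 on WT arrays. Both these markers and Abcg1 were highest on RRas2-deficient replicate 3 and had their lowest values on RRas2-deficient replicate 1 and WT replicate 3. Abca1 did not share this order, since RRas2-deficient replicate 3 was its second lowest array and WT replicate 2 its highest. Of the defining markers, Cd14 was under the limit for dim genes of 3.48, and Adgre1 averaged 3.98 in deficient cells and 3.91 in WT cells. Others lay further above that limit, with 7.19 in deficient cells and 7.34 in WT cells for Cd68, and 5.12 in deficient cells and 4.96 in WT cells for Csf1r. The part of such cells in the exporter values was not tested.

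**Figure D3:**
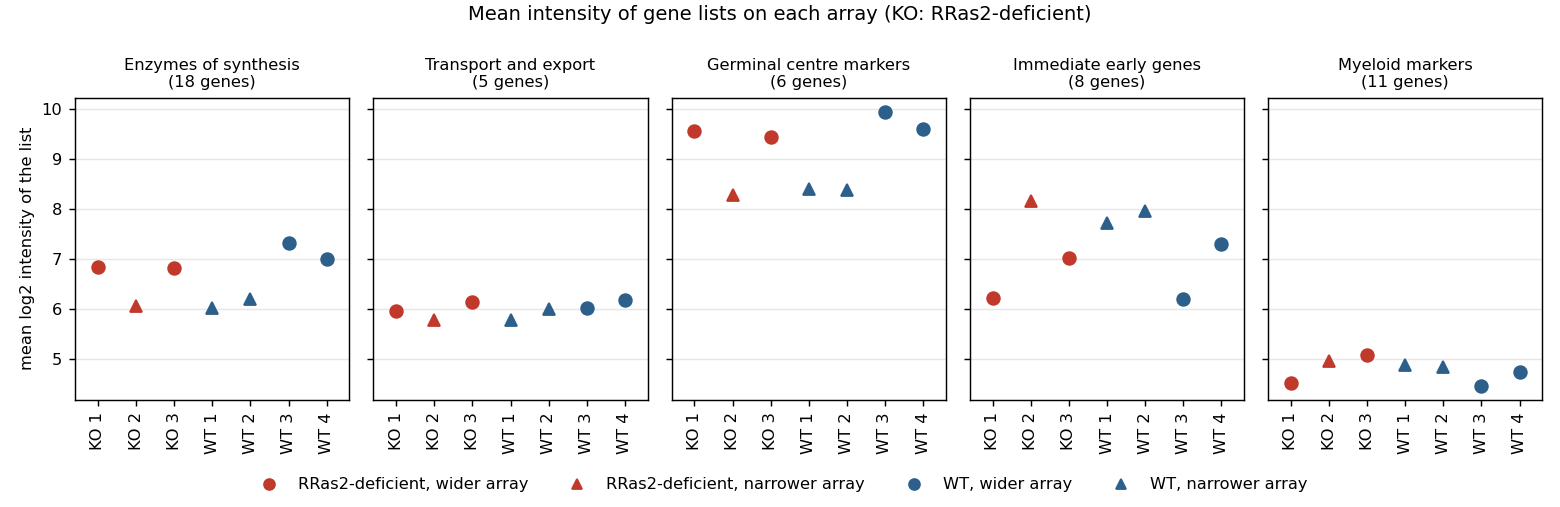
Mean log2 intensity (y axis) of 5 gene lists on each array (x axis; KO stands for RRas2-deficient), in red for RRas2-deficient and blue for WT, with circles for wider and triangles for narrower arrays. The enzymes of synthesis and the germinal centre markers are higher on wider arrays and immediate early genes are lower. The mean of the transport genes varies little. Its members Stard4 and Npc1 are higher on all wider arrays, whereas Abca1 and Abcg1 only have lower means there and their sets overlap.

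With the array set held as a block, most sterol genes had lower values in deficient cells, but none passed the test over all genes. The block was first used after earlier results of these data had been seen. The shares given beside the counts are over all genes tested, and genes of like intensity were not counted for the genotype difference. The median log2 difference was -0.17, beside -0.0033 over all genes, with 21 of 27 genes negative. At an unadjusted p under 0.05 there were 8 of 27 genes, all with negative differences, against 10.1% of all genes tested, 6.24% negative and 3.89% positive. None of the 27 passed an adjusted p of 0.05, against 0.0124% of all genes, and the lowest adjusted p was 0.337 (limma). The 8 genes comprised 2 of the isoprenoid arm, 4 of the sterol arm, 2 of sensing and none of transport. When each array's interquartile range replaced the sets as a covariate, the median was -0.02, 15 of 27 were negative and 3 had an unadjusted p under 0.05, 2 of them negative, against 4.70% of all genes in that fit. Leaving out 1 array at a time with the block gave 4 to 8 such genes, the fewest without RRas2-deficient replicate 3 (7.97% of all genes in that fit) or without WT replicate 3 (6.92%). The share of all genes over these fits was 6.92% to 13.01%. Without WT replicate 3 the median was -0.10, with 18 of 27 negative.

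Dhcr7 differed by -0.40 ± 0.10 (SE) in the blocked model, with an unadjusted p of 0.00539. Nsdhl followed at -0.46 ± 0.13 (unadjusted p = 0.00948) and Lss at -0.49 ± 0.15 (unadjusted p = 0.0124). Sc5d differed by -0.56 ± 0.17 and Insig1 by -0.37 ± 0.13, with unadjusted p of 0.0146 and 0.0217. Srebf2 differed by -0.26 ± 0.09, Hmgcs1 by -0.48 ± 0.18 and Pmvk by -0.33 ± 0.13, at unadjusted p values of 0.0269, 0.0313 and 0.0413. After adjustment these 8 lay between 0.337 and 0.473 (limma adjusted p). Sc5d had the largest difference of the list in size. Cyp51, the gene that moved most between the array sets, differed by -0.28 ± 0.17 with an unadjusted p of 0.153. Sqle, Msmo1 and Fdps differed by -0.09 ± 0.14, -0.08 ± 0.28 and 0.05 ± 0.16, each within about 1 standard error of 0.

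**Figure D4:**
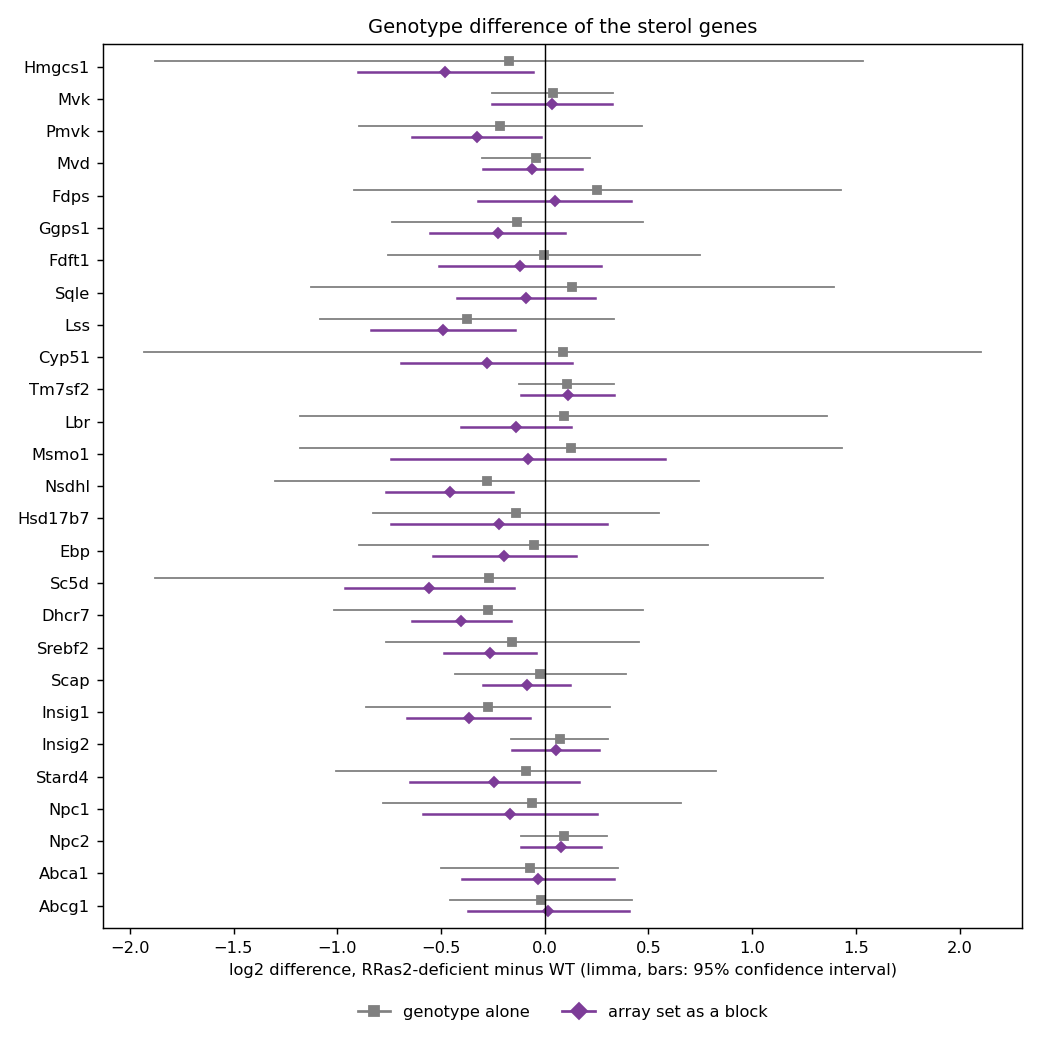
Log2 difference between RRas2-deficient and WT cells (x axis) for each sterol gene (y axis) with its 95% confidence interval, from limma with genotype alone (grey squares) and with the array set as a block (purple diamonds). The grey intervals all span 0, and 8 purple intervals lie below 0 before adjustment over all genes.

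The same values can be read array by array, which is no second test because the arrays and the sets are those of the blocked model. RRas2-deficient replicate 2 is the only deficient array of the narrower set. In 7 of the 27 genes the deficient arrays were below the WT arrays within both sets, against 7.64% of all genes tested, and in 0 they were above within both, against 6.70%. These 7 were Hmgcs1, Lss, Nsdhl, Sc5d, Dhcr7, Srebf2 and Insig1. Dhcr7 read 6.48 and 6.41 in deficient cells against 6.90 and 6.96 in WT cells on the wider arrays. On the narrower arrays it read 5.79 in deficient cells against 6.21 and 5.91 in WT cells. The margin was thin in Sc5d, where RRas2-deficient replicate 1 read 7.48 and WT replicate 4 read 7.49. In the blocked model 6 of 6 germinal centre markers were also negative, with a median of -0.14, and 5 of 5 plasma cell markers, with a median of -0.33. Of all genes tested 50.9% were negative there. At an unadjusted p under 0.05 (limma) there were 2 of the 6 and 1 of the 5, against 10.1% of all genes. Bcl6 (-0.03 ± 0.12, SE) and Sdc1 (-0.02 ± 0.11) lay near 0. The germinal centre markers averaged 8.29 to 9.56 on deficient arrays and 8.39 to 9.96 on WT arrays, and the plasma cell markers 6.75 to 7.19 on deficient arrays and 7.02 to 7.40 on WT arrays. Their part in the sterol values was not tested. The interquartile ranges of the wider arrays were 2.73 and 2.69 in deficient cells and 2.91 and 2.78 in WT cells, so spread and genotype cannot be told apart on those arrays.

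Other genes of the pathway were taken as 6 further lists of 59 genes, of which 45 were tested. Of these 45, 0 passed an adjusted p of 0.05 (limma) and 0 had an unadjusted p under 0.05 in the model of genotype alone, with 18 positive and 27 negative differences. In the blocked model 8 had an unadjusted p under 0.05, 6 negative and 2 positive, or 17.8% against 10.1% of all genes tested, and 0 passed after adjustment. Of 13 genes that attach isoprenoids to proteins or use them for dolichol and ubiquinone, 2 were positive and 11 negative, with a median of -0.05. Icmt and Rce1, which finish prenylated proteins, differed by 0.19 ± 0.15 and -0.16 ± 0.19, and Dhdds, of dolichol synthesis, by -0.18 ± 0.31. Dhdds read 7.05, 6.28 and 7.06 on deficient arrays against 6.59, 6.54, 7.47 and 7.30 on WT arrays, with -0.31 ± 0.08 in the blocked model (adjusted p = 0.337, limma).

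Acss2 and Aacs, which activate acetate and acetoacetate for lipid synthesis, had positive differences of 0.22 ± 0.15 and 0.22 ± 0.16. Acss2 read 5.09, 5.40 and 5.09 on deficient arrays against 5.09, 5.15, 4.69 and 4.96 on WT arrays, with 0.27 ± 0.09 in the blocked model (adjusted p = 0.410, limma). Acat1, a mitochondrial thiolase and the third gene tested of that list, differed by -0.01 ± 0.52. Of 6 oxysterol and nuclear receptor genes 3 were positive and 3 negative. Cyp27a1, a sterol hydroxylase, had the lowest unadjusted p of all 45 (0.090), with 5.47, 5.70 and 5.40 on deficient arrays against 5.35, 4.98, 5.31 and 5.40 on WT arrays. Its difference was 0.27 ± 0.13, and Rxra and Hsd3b7 followed at 0.11 ± 0.11 and 0.09 ± 0.11.

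Of 9 genes of uptake, storage and lysosomal release 4 were positive and 5 negative. Lipa, the lysosomal lipase that frees cholesterol from its esters, differed by -0.26 ± 0.31, Nceh1 by 0.09 ± 0.09 and Apob by 0.04 ± 0.07. Of 10 genes of sterol transfer between membranes 5 were positive and 5 negative, among them Osbpl2 (-0.30 ± 0.39), Gramd1a (0.20 ± 0.22) and Osbpl5 (0.13 ± 0.14). Of 4 genes of SREBP processing and sterol-regulated degradation 2 were positive and 2 negative, with Srebf1 at 0.07 ± 0.17, the protease gene Mbtps1 at -0.06 ± 0.18 and Ufd1 at -0.08 ± 0.25.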

How the data were processed

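Total RNA of the sorted cells was fragmented, biotinylated and run on arrays, 1 for each sample, per the labels. The authors deposited log2 intensities per probe set, and the submitters' processing notes name RMA and oligo without versions. The genome build behind the probes is not stated, and scanner files were not used here. The titles gave each sample's genotype. Probes were named from the platform annotation, in which 22225 of 25349 had 1 symbol, and the probe of highest mean stood for its gene. A gene was tested if its mean reached the 25th percentile of all genes, 3.48, which 16136 did.

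Differences are RRas2-deficient minus WT from limma 3.58.1 (R 4.3.3), two-sided, with Benjamini-Hochberg adjustment over 16136 genes and a threshold of 0.05. All p-values of single genes come from limma, and the error beside a difference is its standard error. They measure the spread among these samples only, which may be technical. No 2 arrays held identical values. The array sets were divided where the gap in interquartile range was widest (0.197). The text names every sterol gene, and of each further list up to 3 genes of lowest p, with values of each array for control points and for genes of low p. Members, lists and the array sets were chosen with earlier results of these data known, so lists are described and not tested.

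The closing section draws on other filters on dim genes, averaged probes, quantile normalization, median centring, an intensity trend, array weights (statmod 1.5.0), blocks for replicate number and for array set, the interquartile range as covariate, single sets, omission of each array, and unmoderated least squares. Set differences after quantile normalization and the genes of like intensity were added after seeing the data. The model of genotype alone was run on simulated data without a difference between array sets, and the blocked model on simulated data with such a difference. The model of genotype alone was thus not tried under shifts between the sets. Promoter windows and chromosomes come from RefSeq tables (GRCm38.p6).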

Additional observations from a re-analysis of the deposited data

Results flagged for a closer look

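Among 46 genes looked at in the 4 WT arrays, 4 had 1 array far from the others by Dixon's test at its 95% critical value, where chance gives about 1 in 20. Npc2 read 5.81 in WT replicate 1 and 6.00 to 6.04 on the other WT arrays. Srebf1, the relative of Srebf2 that drives fatty acid genes, read 6.84 in WT replicate 1 and 7.13 to 7.18 on the others. Rxra, the partner receptor of the oxysterol sensors, read 4.41 in WT replicate 3 and 4.74 to 4.77 on the others. Apob, a lipoprotein gene near the limit for dim genes, read 3.79 in WT replicate 4 and 3.91 on each of the other WT arrays. Those other values were identical, so a gap of any size would have been flagged and the chance rate does not hold for Apob.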

How the results depend on the processing

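No sterol gene passed under any of the 26 alternatives or the unmoderated test, with a lowest adjusted p of 0.230 (Nsdhl, limma, array set as a block without WT replicate 4). The median difference ran from -0.23 to 0.10 over them, and in 702 pairs of a sterol gene and an alternative the sign changed in 120, none of them called, and the value moved by more than its standard error in 14. Between the genotypes, deviations from the group means correlated at -0.59 for replicate 1, 0.78 for replicate 2 and 0.66 for replicate 3. The arrays of replicates 2 and 3 shared an array set across genotype and those of replicate 1 did not. These values therefore cannot tell a pairing by replicate number from the array set. The replicate block, which sets WT replicate 4 aside, gave a median of 0.02 with 12 of 27 negative and 0 of all genes called (176 at an unadjusted p under 0.05). Over all genes, 2 passed with genotype alone, 1 with arrays centred, 5 with array weights, 0 on the wider arrays alone, 0 on the narrower arrays alone, where the single deficient array is assumed to vary like the WT arrays, and 0 without moderation (141 at an unadjusted p under 0.05). Leaving out 1 array gave 0 to 2, or 1 to 2 when array sets were blocked. The cause was not tested.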

Other observations

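A further quantile normalization gives all arrays the same distribution over probes. After it 12 of 27 sterol genes, fewer than the 18 before it, had all wider arrays above all narrower ones. This compares with 20.4% of all genes tested and 25.5% of the genes of like intensity. The median log2 difference fell from 0.62 to 0.28, beside -0.02 over all genes and -0.02 over those of like intensity after the same step. Cyp51 was then 3.87-fold brighter on the wider arrays and ranked 15th of 16136 genes. Hmgcs1 and Sc5d were 2.53-fold and 2.54-fold brighter, and Stard4, the sterol carrier, 1.72-fold. The 4 sensing genes lay close to 0 on the log2 scale, with Insig1 at -0.01, Scap at -0.10, Srebf2 at 0.12 and Insig2 at 0.14. Some enzymes lay as close, such as Mvk at -0.10 and Tm7sf2 at -0.05. Abca1 and Abcg1 were further below 0 there, at -0.61 and -0.49. These are values of 7 arrays, no test was made, and the part of array spread in them was not tested.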
